A study of Caenorhabditis elegans with 5 samples.

Results

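The genes described here are the cytosolic ribosomal protein genes of Caenorhabditis elegans, chosen by name as every protein-coding gene called rpl, rps or rla in the Ensembl WBcel235 annotation. They number 81 of 19985 protein-coding genes. The set holds 47 genes of the large subunit (rpl), 31 genes of the small subunit (rps) and 3 genes of the large subunit's stalk (rla). RefSeq names a ribosomal protein as the product of 77 of them. The exceptions are rpl-24.2, listed as a putative ribosome biogenesis protein, rpl-42, listed by a NAM-associated domain, rps-10, listed by its eS10 domain, and rps-30, listed by its ubiquitin-like domain.

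Cytosolic ribosomes translate the mRNAs of the nuclear genome, and each is built from a large and a small subunit whose proteins are made in near equal amounts. Genes for these proteins are among the most highly transcribed in growing animals, they are short, and many of their mRNAs are trans-spliced in nematodes, so that the annotated 5' end often marks a splice site and not the start of transcription. ATTF-4 belongs to a family named for the AT hook, a short peptide that contacts the minor groove of AT-rich DNA.

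The data are ChIP-seq peak lists for ATTF-4 from whole fourth-stage (L4) larvae of strain OP219, in which unc-119(ed3) III is combined with the transgene wgIs219. That transgene expresses C05D10.1 (attf-4) with a GFP-FLAG tag at its C terminus, the animals were pooled males and females, and the chromatin was fragmented with a sonicator tip. The 5 libraries formed 3 biological replicates, of which replicate 1 was a single library and replicates 2 and 3 were 2 technical libraries each. There was no second group, so no condition was compared, and the control experiment that the labels name as possible was not analysed here. By their labels, the peak list pooled over replicates and those of replicates 2 and 3 were called with a control alignment.

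The authors deposited a pooled list of 24897 peaks, a list for each replicate of 30000, 22227 and 30000 peaks, and a final set, which is the 173 strongest peaks of the pooled list. The labels describe the pooled and replicate lists as peaks together with background, and only the final set as thresholded. Any entry of these long lists is called a peak here, but it may be background. The long lists hold many weak entries, as the median −log10 q of the pooled list was 0.144 against a highest value of 2.69. The final set ended at a signal of 29.4, and the strongest pooled peak left out of it had 29.3. Signal is the value in the enrichment column of the authors' peak lists, has no stated unit and is compared only within a list. The number of reads behind each peak is unknown. Because whole animals were used, the values say nothing of which cells carried a peak.

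A gene was counted as having a peak when a summit lay from 1000 bp upstream to 200 bp downstream of its 5' end, and its strongest such peak was used. Of the 81 genes, 7 had a peak of the final set there. They were rpl-3, rpl-15, rpl-20, rpl-35 and rpl-11.2 of the large subunit, with rps-1 and rps-12 of the small. Their summits carry the highest signals of the set, so the 101 bases around each are given below, read 5' to 3' on the gene's own strand from the ce11 genome (WBcel235). Capitals mark every match, on either strand, to the 9 words of 7 bases that lay within 100 bp of the summits of 4 or more of these 7 genes and of under 5% of other promoter summits.
rpl-3: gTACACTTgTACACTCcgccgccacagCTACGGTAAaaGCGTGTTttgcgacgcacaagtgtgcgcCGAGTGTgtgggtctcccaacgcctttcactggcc
rpl-20: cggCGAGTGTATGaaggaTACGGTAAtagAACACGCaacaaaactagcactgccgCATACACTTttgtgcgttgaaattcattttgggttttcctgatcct
rpl-15: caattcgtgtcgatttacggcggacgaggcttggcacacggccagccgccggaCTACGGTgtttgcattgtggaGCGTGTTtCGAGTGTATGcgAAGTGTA
rps-1: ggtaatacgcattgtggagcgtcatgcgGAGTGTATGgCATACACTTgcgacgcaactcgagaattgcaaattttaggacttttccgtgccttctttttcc
rpl-35: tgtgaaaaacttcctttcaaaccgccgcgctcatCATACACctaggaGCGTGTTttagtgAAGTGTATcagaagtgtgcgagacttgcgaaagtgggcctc
rpl-11.2: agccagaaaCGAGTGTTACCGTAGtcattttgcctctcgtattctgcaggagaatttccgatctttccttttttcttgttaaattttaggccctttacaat
rps-12: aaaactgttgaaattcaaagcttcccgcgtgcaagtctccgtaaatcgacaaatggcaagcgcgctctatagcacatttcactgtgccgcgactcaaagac
These stretches cover chrIII:3867539-3867639 (rpl-3, plus strand), chrIV:4749999-4750099 (rpl-20, minus strand), chrIV:654900-655000 (rpl-15, minus strand), chrIII:4475638-4475738 (rps-1, plus strand), chrIII:7854626-7854726 (rpl-35, plus strand), chrX:2242882-2242982 (rpl-11.2, minus strand) and chrIII:5679051-5679151 (rps-12, plus strand). None of them overlaps an annotated untranslated region, and all lie upstream of the ribosomal protein gene. Capitals cover 37 of the 101 bases at rpl-3, 34 at rpl-20 and 31 at rpl-15, and none at rps-12.

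Ribosomal protein genes carried promoter peaks more often than protein-coding genes at large, and the ratio of the shares was highest for the strongest peaks. A pooled peak lay in the window of 67 of 81 genes (82.7%), against 32.3% of all protein-coding genes. Since the pooled list includes background, these are shares of windows with a listed entry, not of bound genes. A peak among the 1000 strongest of the pooled list lay in 17 of 81 windows (21%), against 2.41% of all genes. A final-set peak lay in 7 of 81 windows (8.64%), against 0.445% of all genes, which is 89 genes, 12 of them on the mitochondrial genome. The 67 genes shared 65 distinct summits. Their median pooled signal was 14.0, with quartiles of 10.3 and 18.9, against a median of 9.98 and quartiles of 8.27 and 12.7 over the 6446 genes with a peak.

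**Figure D1:**
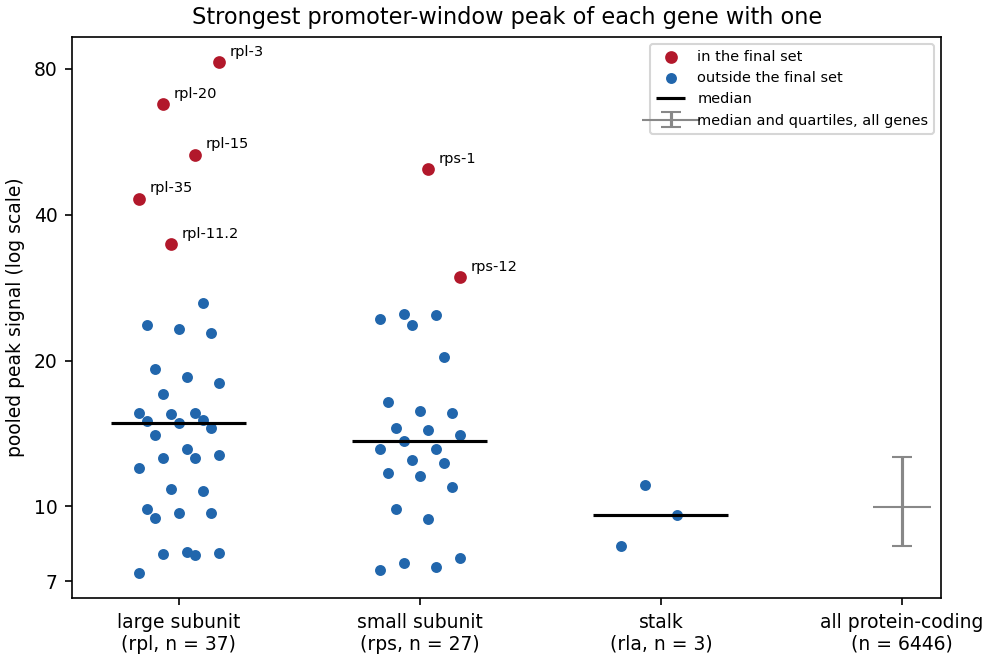
The strongest pooled peak signal in the promoter window of each ribosomal protein gene that has one, on a log axis, for the large subunit, the small subunit and the stalk, beside the median and quartiles of all protein-coding genes with a peak. Red points are the 7 genes with a final-set peak, from 29.7 (rps-12) to 82.5 (rpl-3), and black bars are medians.

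The large-subunit genes supplied 5 of the 7 genes with a final-set peak. The strongest was rpl-3, whose product uL3 reaches towards the peptidyl transferase centre. Its summit had a pooled signal of 82.5, rank 23 of the pooled list, and lay 265 bp upstream of the 5' end. No other gene's window held that summit. The peak of rpl-20 (eL20) had a signal of 67.6 at rank 31 and lay 271 bp upstream. Its window is shared with Y17G9B.5, a gene facing the other way, whose 5' end was 191 bp from the summit and so nearer than that of rpl-20. The peak of rpl-15 (eL15) had a signal of 53.2 at rank 39, 374 bp upstream, with K11H12.8 on its other side at 440 bp.

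The peak of rpl-35, which encodes uL29, a protein at the mouth of the exit tunnel, had a signal of 43.2 at rank 57 and lay 458 bp upstream, the farthest of the 7. The peak of rpl-11.2 (uL5B), whose product binds 5S rRNA, had a signal of 34.8 at rank 105, 314 bp upstream, on the X chromosome. Neither summit lay in another gene's window. The paralogue of rpl-11.2, rpl-11.1 (uL5A), on chromosome V, had no pooled peak in its window. A weak peak was listed there in replicate 1 (signal 2.37) and none in replicates 2 and 3.

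Small-subunit genes supplied the other 2. The peak of rps-1 (eS1) had a signal of 49.6 at rank 40, 230 bp upstream, in a window shared with ifet-1, whose 5' end was 538 bp away. The peak of rps-12 (eS12) had a signal of 29.7 at rank 168, 197 bp upstream of rps-12 and 96 bp from the 5' end of its head-to-head neighbour ska-3. That value was just inside the edge of the final set. The 7 genes lay on chromosomes III (4), IV (2) and X (1). The 25 ribosomal protein genes of chromosome I had none, where 0.556% of all protein-coding genes of that chromosome have a final-set peak, so a count of 0 is no contrast.

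The next 8 genes by signal stood at ranks 263 to 455 of the pooled list, outside the final set. The gene rpl-5, encoding uL18, another 5S rRNA partner, had a signal of 26.3 at rank 263. The genes rps-23 (uS12, at the decoding centre) and rps-4 (eS4) had signals of 24.9 each. The genes rps-20 (uS10) and rps-19 (eS19) had 24.3 and 23.7. The gene rpl-24.2, the one listed as a biogenesis protein, had 23.7, and rpl-22 (eL22) had 23.3. The gene rpl-25.2 (uL23B), at the exit tunnel, had 22.8, while its paralogue rpl-25.1 on X had 9.69. The replicate lists did not all keep this order. The strongest signal in the window was higher for rpl-25.2 in replicate 1 (9.27 against 6.6). In replicate 3 it was higher for rpl-25.1 (8.5 against 7.34). In replicate 2 rpl-25.1 had a window peak (9.71) and rpl-25.2 had none. Of these 8 summits, 5 were nearer to the 5' end of a head-to-head neighbour, namely col-38, dpm-3, ekl-4, hsr-9 and ify-1.

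The 3 stalk genes had weak peaks. Their pooled signals were 11.1 for rla-1, 9.58 for rla-0 and 8.29 for rla-2, at ranks 7363, 11651 and 16945. These products form the flexible arm that recruits translation factors. The summit of rla-1 also stood at rank 205 in the list of replicate 2, with a signal of 9.11, but at rank 19515 in replicate 1, and replicate 3 had no summit within 100 bp of it.

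The 2 subunits differed little. A pooled peak lay in 37 of 47 large-subunit windows (78.7%) and in 27 of 31 small-subunit windows (87.1%), a difference of -8.37 percentage points. The median pooled signal was 14.8 for large-subunit genes with a peak and 13.7 for small-subunit genes with a peak, a difference of 1.17. In the replicate lists the difference in share was -0.755, -3.91 and -1.92 percentage points for replicates 1, 2 and 3. The median signal was higher for large-subunit genes in replicate 2 only (5.16 against 3.77), and lower in replicate 1 (5.28 against 6.32) and replicate 3 (7.96 against 9.01). The sign of the difference in share turned for final-set peaks alone, 10.6% of large-subunit genes against 6.45% of small-subunit genes. Genes whose products are conserved in all domains of life (uL and uS names) had a peak in 30 of 33 cases, with a median signal of 13.6, and those shared by eukaryotes, in part with archaea (eL and eS names), in 30 of 37 cases, with a median of 14.3.

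Of the 81 genes, 14 had no pooled peak in the window. They were rpl-11.1, rpl-12, rpl-18, rpl-19, rpl-24.1, rpl-26, rpl-30, rpl-41.1, rpl-41.2 and rpl-42 of the large subunit and rps-6, rps-17, rps-21 and rps-22 of the small subunit. Among them is rps-6, whose product eS6 is the classic substrate of S6 kinase. The replicate lists still held a peak in 12 of these 14 windows, in 2 lists for 8 genes and in 1 list for 4. The exceptions were rps-22 and rpl-42, with no peak in any list. Within the list of replicate 3, the strongest of them was that of rpl-12, with a signal of 11.6.

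**Figure D2:**
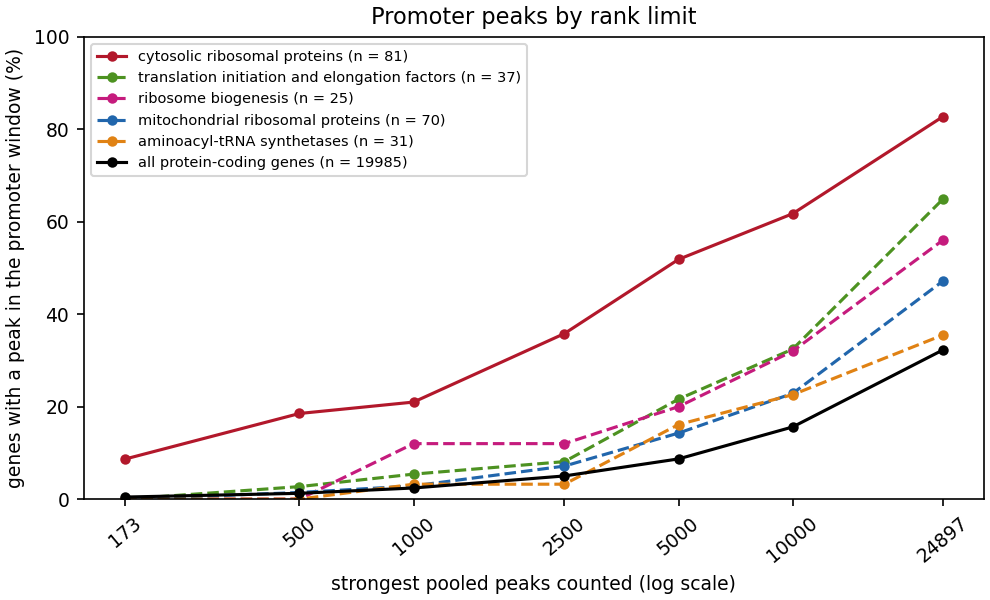
Percentage of genes whose promoter window holds a pooled summit, for the strongest 173 to 24897 pooled peaks on a log axis. Cytosolic ribosomal protein genes (red) lie above all protein-coding genes (black) and above the 4 other lists of translation genes at every limit, from 8.64% at 173 peaks to 82.7% at 24897 peaks.

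Other genes of protein synthesis carried pooled peaks less often than the ribosomal protein genes, and with lower median signals. These lists were also picked by name. No final-set peak lay in a window of the 70 mitochondrial ribosomal protein genes, the 37 translation initiation and elongation factor genes, the 25 ribosome biogenesis genes or the 31 aminoacyl-tRNA synthetase genes. The share over all genes, 0.445%, is under 1 gene in a list of any of these sizes, so the counts of 0 show no difference from it. A peak among the 1000 strongest lay in 2.86%, 5.41%, 12% and 3.23% of their windows, in that order, against 2.41% of all genes. A pooled peak of any rank lay in 47.1%, 64.9%, 56% and 35.5%, against 32.3% of all genes, with median signals of 9.67, 9.66, 11.6 and 10.8. The strongest were mrpl-39 (22.6) among mitochondrial ribosomal proteins, eif-3.C (26.8) among translation factors, rrp-8 (19.3) among biogenesis genes and ears-2 (21.8) among synthetases. The peak of lpd-7 (19.3), a biogenesis gene, is the same summit as that of its head-to-head neighbour rpl-9, and mrpl-49 shares its summit with rpl-28.

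Summits of ribosomal protein genes gathered in a band upstream of the gene. Their median position was 323 bp upstream of the 5' end, with quartiles of 212 and 436 bp. For all genes with a peak the median was much the same, 316 bp, but the quartiles were 90.2 and 634 bp. From 151 to 500 bp upstream lay 45 of the 67 summits (67.2%), against 34.2% for all genes. The 7 final-set summits lay 197 to 458 bp upstream, with a median of 271 bp, and the 60 others had a median of 332 bp. Only 8 of the 67 summits lay at or downstream of the 5' end, among them those of rpl-27 (179 bp) and rps-14 (172 bp). For trans-spliced genes these distances run from the splice site, not from the start of transcription.

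**Figure D3:**
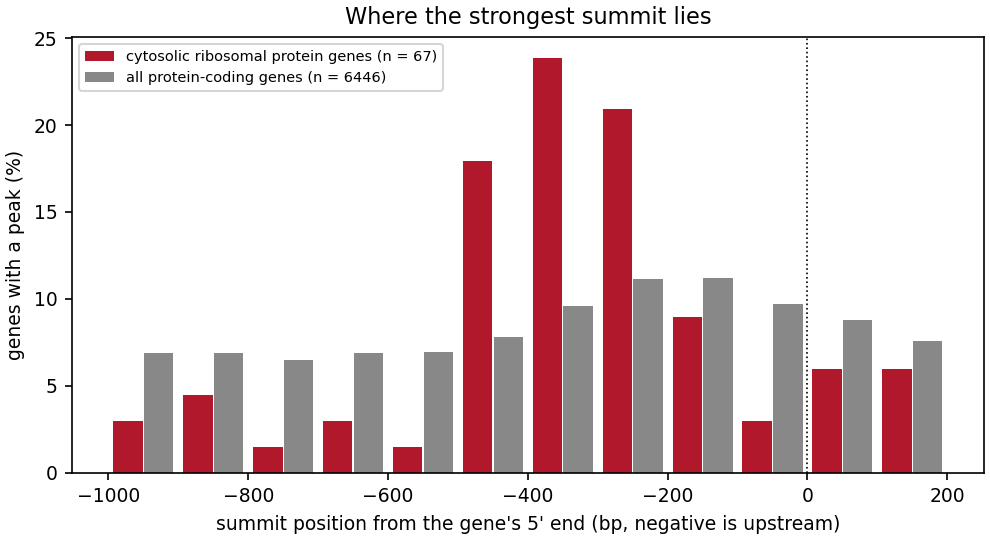
Position of the strongest pooled summit from the annotated 5' end in 100 bp bins, as a percentage of the 67 ribosomal protein genes with a peak (red) and of the 6446 protein-coding genes with a peak (grey). The bins from 500 to 200 bp upstream hold 17.9%, 23.9% and 20.9% of the ribosomal protein genes, against 7.82%, 9.6% and 11.2% of all genes.

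Many of these promoters face another gene. A head-to-head neighbour on the opposite strand lay within 1000 bp of 48 of 81 ribosomal protein genes (59.3%), against 17.2% of all protein-coding genes. A same-strand gene ended within 500 bp upstream of 9 (11.1%), against 17.7% of all genes. Of the 67 summits, counted per gene, 41 (61.2%) also lay in another gene's window, against 25.3% for all genes with a peak. The 5' end of another gene was the nearest in 28 cases, and in 27 of these it belonged to the upstream neighbour. Peaks were not limited to the paired promoters. A pooled peak lay in 40 of 48 genes with a head-to-head neighbour (83.3%). It lay in 18 of 22 with neither kind of neighbour at these distances (81.8%) and in 7 of 9 behind a same-strand gene (77.8%). A same-strand gene could still end farther than 500 bp upstream of the 22, as at rps-8 (510 bp). In all genes of the same 3 arrangements a pooled peak lay in 39.5%, 28.4% and 37.9% of windows. Final-set peaks lay in 4 of 48, 3 of 22 and 0 of 9, against 0.699%, 0.37% and 0.452% of all genes so arranged. The 5' ends of the remaining 2, rpl-24.2 and rpl-37, lie inside another gene, and both had a pooled peak outside the final set.

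Of 3 head-to-head pairs of ribosomal protein genes, 2 pairs had a summit in common. The pair rpl-39 and rps-30 had 1 summit, with a signal of 13.1, that lay 288 bp upstream of rpl-39 and 211 bp upstream of rps-30. The strongest summit of the pair rpl-36 and rps-14, with a signal of 15.6, lay 835 bp upstream of rpl-36 and 172 bp into rps-14. Each of these windows held 2 pooled peaks. The third such pair, rps-10 and rpl-24.1, had a pooled summit of signal 15.7 counted for rps-10, 869 bp upstream of it, and none in the window of rpl-24.1. That summit lay inside the gene rpl-24.1, beyond its window, and the 5' end of rpl-24.1 was the nearest to it. Small nucleolar RNA genes lie within 13 of the 81 genes, and 11 of these 13 had a pooled promoter peak, a share close to the 82.7% of all 81. Only 2 of the 67 summits, those of rps-10 and rps-26, had such a gene within 200 bp.

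The 3 replicate lists ranked the strongest ribosomal protein peaks differently. A replicate peak of any rank lay in 56, 54 and 65 of the 81 windows for replicates 1, 2 and 3 (69.1%, 66.7% and 80.2%), against 34.1%, 25.8% and 36% of all genes. These lists too include background. A peak among the 1000 strongest of a list lay in 14, 9 and 17 windows (17.3%, 11.1% and 21%), against 1.74%, 1.83% and 2.2% of all genes. A summit within 100 bp of the pooled summit stood in every replicate list for 12 genes, 14.8% of the 81, against 1.36% of all genes. Leaving out the list of replicate 1, the count of genes with a summit in both other lists was 23. Replicate 1 placed 24 of the 67 pooled summits within 100 bp, replicate 2 placed 28 and replicate 3 placed 46, at median offsets of 28.5, 20.5 and 29.5 bp.

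All 7 genes with a final-set peak were among those 12, with rpl-5, rps-23, rps-20, rpl-22 and rps-28. The final set was itself derived from the pooled and replicate lists, so this presence in every list is in part built in. The gene rpl-20 stood at ranks 40, 33 and 42 in replicates 1, 2 and 3. The gene rpl-15 stood at ranks 77, 70 and 67. The gene rpl-3 stood at rank 683 in replicate 1 (signal 9.88), against rank 50 in replicate 2 (13.1) and rank 22 in replicate 3 (58.6). These 3 were the genes whose matched summit, within 100 bp of the pooled summit, was among the 1000 strongest peaks of every list.

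The matched summits of the remaining 4 stood below rank 1000 in at least 1 list. The gene rps-1 stood at ranks 252, 1163 and 43. The gene rpl-35 stood at ranks 1953, 685 and 50. The gene rpl-11.2 stood at ranks 609, 1213 and 256. Replicate 2 also listed a stronger peak elsewhere in the window of rpl-11.2, among its 1000 strongest (signal 9.70, against 6.20 at the matched summit). The gene rps-12 stood at ranks 4149, 1996 and 368, below the 1000 strongest in replicates 1 and 2. Among the matched summits of these 4, those in the list of replicate 3 had the strongest rank.

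The other 5 of the 12 had no final-set peak. The gene rpl-5 stood at rank 776 in replicate 1 but at ranks 9722 and 18367 in replicates 2 and 3. The gene rpl-22 stood at ranks 369, 12929 and 1475, and rps-23 at ranks 1866, 357 and 1647. The gene rps-20 stood at ranks 3284, 9362 and 1273, and rps-28 at ranks 1587, 7178 and 582. Several strong pooled peaks had no summit within 100 bp in every list. Such a summit was found for rps-4 in replicate 1 alone (rank 411) and for rps-19 in replicate 3 alone (rank 168). It was found for rpl-25.2 in replicate 1 alone (rank 917) and for rpl-24.2 in replicates 2 and 3 (ranks 2485 and 5972). Elsewhere in the window, rps-4 had peaks in replicates 2 and 3 (signals 5.24 and 7.47), and rps-19 in replicates 1 and 2 (5.19 and 4.34). So did rpl-25.2 in replicate 3 (7.34) and rpl-24.2 in replicate 1 (9.22).

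**Figure D4:**
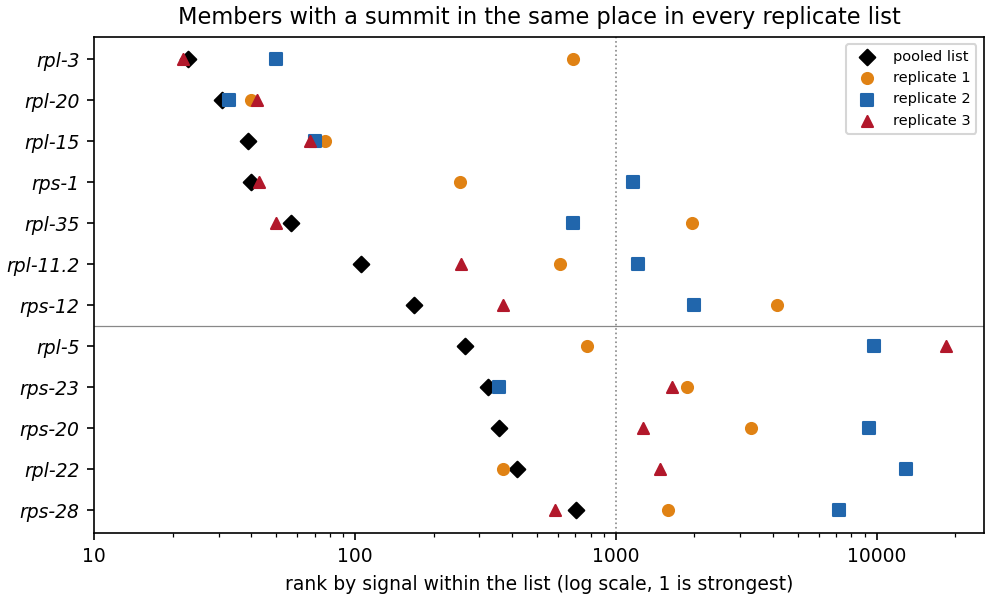
Rank by signal within the pooled list and each replicate list, on a log axis, for the 12 genes with a summit within 100 bp in every replicate list. The 7 genes above the horizontal line have a final-set peak, the dotted line marks rank 1000, and rpl-20 and rpl-15 have all their points at rank 77 or stronger.

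The summits of ribosomal protein genes had a higher GC content than promoter summits in general. Within 100 bp of the summit the median GC content was 39.8% for the 67 genes, with quartiles of 35.3% and 44.0%, against 36.3% with quartiles of 32.3% and 41.3% for all genes with a peak. The 7 genes with a final-set peak had a median of 42.8%, from 38.8% (rpl-20) to 45.8% (rpl-3 and rpl-35). The 60 others had a median of 39.3% and ranged from 21.4% to 56.2%. Of the 67 summits, 5 were under 25% GC, among them those of rps-4 (24.9%), rps-8 (21.4%) and rps-11 (21.4%). On the gene's strand, mean GC of the 7 was 49.7% at the summit and 24% centred on 200 bp downstream of it, towards the gene. Centred on 500 bp downstream it was 50.9%, so the bin at the summit was not the highest.

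**Figure D5:**
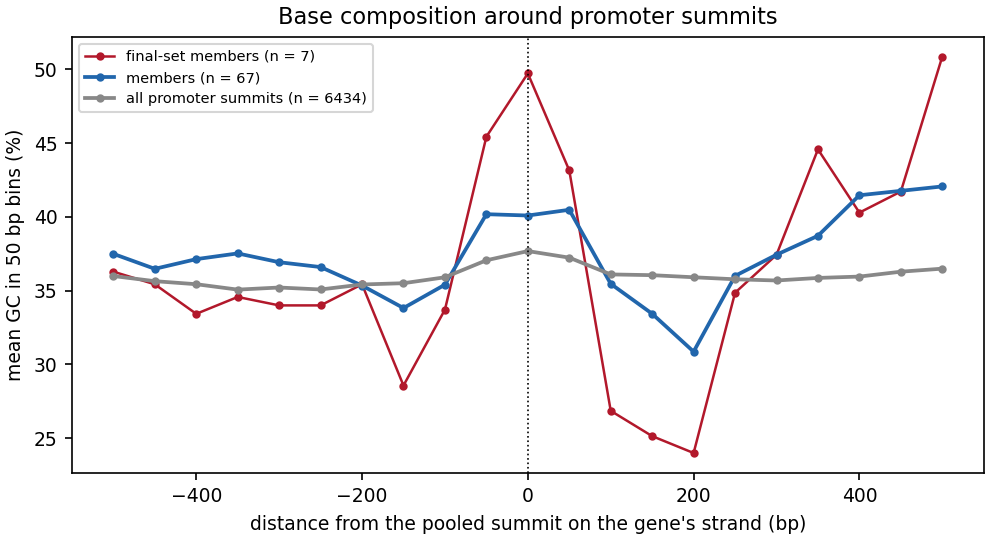
Mean GC content in 50 bp bins from 500 bp before to 500 bp after the pooled summit, on the gene's strand, for the 7 genes with a final-set peak (red), all 67 ribosomal protein genes with a peak (blue) and all 6434 nuclear protein-coding genes with a peak (grey). The bin at the summit holds 49.7%, 40.1% and 37.7% GC.

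Short sequence words recurred at these summits. The 5 words described next were picked from the summits themselves, as the words of 7 bases at 10 or more of the 65 distinct summits, counted within 100 bp on both strands, with the highest share relative to the 5578 other promoter summits. Their counts are therefore a description. CGAGTGT lay at 12 summits (18.5%), against 1.4% of other promoter summits. CTACGGT lay at 10 (15.4%), against 1.2%, and GGCCTAA at 10, against 0.861%. CTGAGTA lay at 11 (16.9%), against 0.986%, and ACGTTGA at 11, against 1.94%.

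At ribosomal protein summits the median signal was higher with some of these words and lower with others. Each word lay at few summits, and the differences were not tested. Of the 7 final-set summits, 4 held CGAGTGT, 4 held CTACGGT and 3 held GGCCTAA, whereas none held CTGAGTA or ACGTTGA. The median pooled signal was 23.5 at ribosomal protein summits with CGAGTGT and 12.8 at those without it. It was 20.1 with CTACGGT and 13.7 without, and 17.6 with GGCCTAA and 13.7 without. It was 11.5 with CTGAGTA and 14.5 without, and 12.6 with ACGTTGA and 14.3 without. At other promoter summits the median was 10.7 with CGAGTGT and 9.84 without it, and 9.68 with CTACGGT and 9.85 without it. It was 9.89 with GGCCTAA and 9.85 without, 10.6 with CTGAGTA and 9.85 without, and 10.1 with ACGTTGA and 9.84 without. Among 140 final-set peaks of the nuclear genome outside ribosomal protein promoters, 4 held CGAGTGT, 4 held CTGAGTA, 3 held CTACGGT, 2 held ACGTTGA and 1 held GGCCTAA.

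The words were also counted upstream of every gene, with or without a peak. In the 500 bp upstream of the 5' end, CGAGTGT lay in 17 of 81 ribosomal protein genes (21%), against 2.63% of 19973 nuclear protein-coding genes. CTACGGT lay in 16 (19.8%), against 2.57%, and GGCCTAA in 23 (28.4%), against 2.93%. CTGAGTA lay in 14 (17.3%), against 2.63%, and ACGTTGA in 13 (16%), against 4.98%. Of the 67 genes with a pooled peak, 16 held CGAGTGT, 15 held CTACGGT, 20 held GGCCTAA, 13 held CTGAGTA and 11 held ACGTTGA, against 1, 1, 3, 1 and 2 of the 14 genes without. The words were chosen at summits of these 67 genes, so the excess upstream and the split by peak follow in part from that choice.

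The 9 words behind the capitals, which include CGAGTGT and CTACGGT, were chosen for lying at 4 or more final-set summits. Of the others, AAGTGTA lay at 5 ribosomal protein summits, all 5 of them in the final set, and GCGTGTT lay at 5, of which 4 were in the final set. These words lay at 3.21% and 1.97% of other promoter summits, and in the 500 bp upstream region AAGTGTA was in 7 of 81 ribosomal protein genes, against 7.94% of all genes. The 9 words overlap one another, so their counts are not separate. In the printed sequences GAGTGTATG is at rpl-20, rpl-15 and rps-1. The rps-12 stretch holds no word of this kind. The words were chosen at the same summits, so no test was made.

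Of the 6 motifs named from earlier results of these data, 3 had a higher share than at other promoter summits and 3 a lower share. Several counts were of few summits, so no difference is drawn from them. CTGCGTCTC lay at 1 of 65 summits (1.54%), against 3.75% of other promoter summits, and CNCCGCCC at 1, against 2.56%. CCTGCG lay at 5 (7.69%), against 3.01%, none of them in the final set. TTTCAG lay at 25 (38.5%), against 32.3%, AAATTT at 26 (40%), against 35.4%, and GAGAGA at 10 (15.4%), against 17.7%. Among the 140 other final-set peaks of the nuclear genome, GAGAGA lay at 41.4% and CCTGCG at 14.3%.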

How the data were processed

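Peak lists for the ce11 genome were read as the authors deposited them: a pooled list, 1 list for each of 3 biological replicates from 5 libraries, and a final set. All but the final set include background by their labels, and no further cutoff was applied to them unless stated. Each peak's signal value is the enrichment signal that the authors deposited, and its −log10 q is also the authors' own. For peak caller and aligner, names and versions were not given in the sources used here. The ce10 lists were left out. Genes, 5' ends, untranslated regions and small nucleolar RNA genes came from the Ensembl WBcel235 annotation (release 115), and products and genome sequence from RefSeq's WBcel235.

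Each gene took its strongest summit from 1000 bp upstream to 200 bp downstream, and a summit could count for several genes. Replicate summits matched within 100 bp. GC content and words were counted within 100 bp of a summit, on both strands. Python with numpy and pandas did all the work, and the assignment was tested on planted peaks.

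Members, gene lists and motifs were chosen with earlier results of these data known, and no test was made. With 1 group there is no contrast, replicates are separate biological samples per the labels, and the read depth is unknown. Named genes are all with a final-set peak, the next 8 by signal, those in every replicate's 1000 strongest, the stalk genes, those with no pooled peak and the strongest of each other list. Other windows, limits and matching distances were tried.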

Additional observations from a re-analysis of the deposited data

How the results depend on the processing

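Of 44 alternatives, 30 left a count within 1.5 times its value or a median within the spread of the replicate lists. The count of 67 genes with a pooled peak was 39 when a summit counted only for the nearest 5' end. The count of 7 genes with a final-set peak was 17 for the 1000 strongest pooled peaks, 4 for the strongest 173 of replicate 1 and 7 for each other window. The median summit position was -360 bp in a window reaching 2000 bp upstream. The count of 12 genes present in every replicate list was 3 within the 1000 strongest of each list, 33 for any peak in the window, and 14 to 23 without 1 replicate. The 7 final-set genes present in every list were 3 within the 1000 strongest, and 7 without any 1 replicate. Leaving out a replicate cannot lower a count of genes present in every list. Those alternatives are therefore no check on it, though some count among the 30. Median GC at the summits was 41.6% for 50 bp and 36.1% for 250 bp on each side. The large minus small difference in share was -13.6 and -1.99 percentage points in the narrower and wider windows, and turned to 4.19 for final-set peaks alone, where the difference in median signal was 13.6 (7 genes). The causes were not tested. Without rpl-24.2 and rpl-42, an alternative chosen after seeing the data, 66 genes had a pooled peak and 7 a final-set peak. No paired analysis was possible because there is 1 group. Read depth is unknown, so whether a gene without a peak lacked binding or reads cannot be told apart.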

Other observations

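Peaks were also dense inside ribosomal protein genes. From 201 bp downstream of the 5' end to the gene's end, the 81 genes held 44 pooled peaks in 48.1 kb, or 0.914 per kb, against 0.251 per kb over all protein-coding genes. At least 1 such peak lay in 37 of the 81 (45.7%), against 41.1% of all genes. Median gene length was 754 bp for the ribosomal protein genes and 2026 bp for all genes. The promoter windows held 0.781 peaks per kb, against 0.307 per kb for all genes. The median signal of the peaks inside genes was 11.6, against 9.24 over all genes, and none was in the final set. The strongest was inside rps-22, at a signal of 23.7 and rank 393, a gene with no peak in its promoter window. For translation factors the density inside genes was 0.312 per kb, with the strongest inside eef-1A.1 at a signal of 27.2, and for mitochondrial ribosomal proteins it was 0.235 per kb.

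Some cytosolic ribosomal proteins are encoded under other names. The gene ubq-2, a ubiquitin fusion to a large-subunit protein, had a pooled peak of signal 22.3 at rank 500, 377 bp upstream. The gene ubl-1, a ubiquitin-like fusion to a small-subunit protein, had none. The gene rack-1, for a scaffold on the small subunit, had a signal of 10.7. The window of attf-4 itself held a peak of signal 18.8 at rank 992, and that of unc-119 held none. The transgene also carries attf-4, and whether the native locus or the transgene gave the attf-4 peak was not tested.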
